A study of Mus musculus with 6 samples.

Results

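Acetylcholine receptors are encoded by separate gene families for muscarinic receptors, which signal through G proteins, and for nicotinic receptors, which are ion channels built of 5 subunits. The 10 genes described here are the muscarinic receptor genes Chrm1, Chrm2, Chrm3, Chrm4 and Chrm5 and the nicotinic subunit genes Chrna3, Chrna4, Chrna5, Chrna7 and Chrnb2. They were chosen by name out of 49568 gene rows. RNA was sequenced from the preBötzinger complex (preBötC), the brainstem site where the inspiratory rhythm arises, in 6 mice at postnatal day 2. All mice carried Dbx1CreERT2 and Rosa26tdTomato, and tamoxifen given to the pregnant dams turned on the red fluorescent protein tdTomato in cells derived from Dbx1-expressing progenitors. The 3 Dbx1 samples each held 15 fluorescent neurons and the 3 non-Dbx1 samples each held 15 neurons without fluorescence. Each sample came from a different animal and pooled its 15 cells. A neuron of the Dbx1 lineage in which recombination had failed would count as non-Dbx1. Levels are RPKM, the reads on a gene scaled by the length of its exons and by all reads on genes of the sample. L2FC is the Dbx1 mean of log2(RPKM + 1) minus the non-Dbx1 mean, so that genes higher in Dbx1 have positive values.

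The receptors encoded by Chrm1, Chrm3 and Chrm5 couple to Gq proteins and phospholipase C and mostly excite neurons, whereas those encoded by Chrm2 and Chrm4 couple to Gi/o proteins, which inhibit adenylyl cyclase and open inward rectifier potassium channels. Among nicotinic subunits, the products of Chrna4 and Chrnb2 assemble into the main high-affinity receptor of the brain, that of Chrna5 joins such receptors as an accessory subunit, that of Chrna3 is typical of autonomic neurons, and that of Chrna7 can form channels on its own. Acetylcholine and nicotine both alter the respiratory rhythm of the preBötC in slice preparations.

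The depth of the samples, worked out from the step sizes of their RPKM values, ran from 6464675 to 9432958 reads on genes. Both groups had the neuronal markers, with a summed RPKM of Syn1, Snap25, Tubb3, Eno2, Rbfox3 and Map2 from 994 to 1708 in the Dbx1 samples and from 993 to 1380 in the non-Dbx1 samples. The non-Dbx1 samples differed among themselves in RNA of other cells. The summed RPKM of 4 haemoglobin genes was 13946 in non-Dbx1 replicate 1, against 732 and 1198 in the other non-Dbx1 samples and 89.6 to 505 in the Dbx1 samples. The same sample had the highest sum of 6 oligodendrocyte lineage genes, at 388 RPKM against 16.4 to 73.6 elsewhere. The sum of 8 genes of cholinergic motor neurons, among them Chat, Slc18a3 and Isl1, was 182 RPKM in non-Dbx1 replicate 3, 63.9 in replicate 2 and 5.70 in replicate 1, against 8.33 to 18.5 in the Dbx1 samples. Isl1, a defining motor neuron gene, was at 0 in every sample except non-Dbx1 replicate 3, where it measured 13.3. Of 5 microglial genes, Itgam, Tnf and Ccl3 were at 0 throughout, Aif1 reached 1.53 RPKM and Cx3cr1 1.97, and the sum was 0.202 to 2.58 for Dbx1 and 0 to 1.50 for non-Dbx1. The sum of 5 astrocyte genes was 17.0 to 28.1 RPKM for Dbx1 and 27.0 to 33.9 for non-Dbx1. That of 4 endothelial and pericyte genes was at most 0.507 for Dbx1 and reached 65.4 in non-Dbx1 replicate 2. Most of the 65.4 was Cldn5, at 63.7 RPKM, with Flt1 at 1.60, Pecam1 at 0.0343 and Rgs5 at 0. Markers whose groups did not overlap included Eno2 and Gfap, higher in the Dbx1 samples, and Slc1a3, Mbp and the 4 haemoglobin genes, lower in them. The part of these cells in the values below was not tested. Fits that leave out a sample drop its neurons together with any RNA of other cells, so they cannot test it. In pooled samples, fewer cells with a transcript and less transcript per cell cannot be told apart.

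Of the 10 receptor genes, 9 had reads in at least 1 sample and 5 had reads in all 6, namely Chrna4, Chrm2, Chrna3, Chrnb2 and Chrm3. Chrm5 had none. Mean RPKM over the 6 samples fell from 19.6 for Chrna4 through 8.15 for Chrm2, 4.29 for Chrna3, 3.34 for Chrnb2, 1.96 for Chrm3, 0.767 for Chrna7, 0.316 for Chrm1 and 0.175 for Chrna5 to 0.0895 for Chrm4. For comparison, the median of the mean RPKM over the 27067 genes with reads in any sample was 1.09, so 5 of the receptor genes lay above it. Chrna4 exceeded 90.6% of those genes and Chrm2 81.0%.

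**Figure D1:**
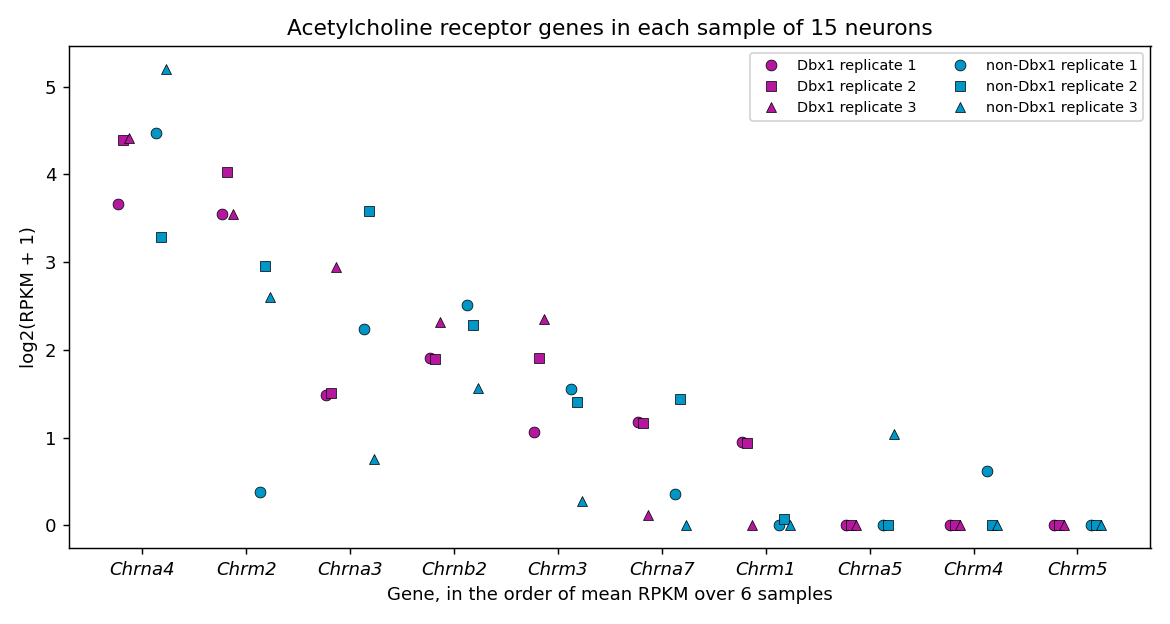
Level of each receptor gene in each sample, as log2(RPKM + 1) on the vertical axis, with genes in the order of mean RPKM. Magenta symbols are the 3 Dbx1 samples and blue symbols the 3 non-Dbx1 samples, with 1 symbol shape for each replicate number. The groups are apart for Chrm2 and overlap for the other detected genes.

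The order of neighbouring genes was tested on the differences within samples, with exact two-sided sign changes over the 6 samples and adjustment over the 9 neighbouring pairs. The pairs were ordered by the same levels, and 4 of the 9 had samples with equal values, so that no adjusted p could fall below 0.05. The p-values are thus given as a description. Chrna4 was above Chrm2 in 6 of 6 samples, by 1.39 ± 1.6 on the log2 scale (SD, n = 6; exact p = 0.031, the smallest that 6 samples allow, and 0.28 after adjustment). The same adjusted exact p of 0.28 was found for Chrnb2 over Chrm3, for Chrm3 over Chrna7 and for Chrna7 over Chrm1. Chrna3 and Chrnb2 differed in both directions, with a mean log2 difference of 0.0047 ± 0.794 (SD, n = 6), and Chrna3 was the higher in 2 samples. Their order reversed per merged exon length, at a mean of 5.28 RPKM for Chrna3 and 5.87 for Chrnb2. Some genes farther apart did not overlap in level. The lowest sample of Chrna4, at 8.75 RPKM, was above the highest of Chrnb2 at 4.72, of Chrm3 at 4.11 and of Chrna7 at 1.72.

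The nicotinic subunit genes come first, since they held the highest level. Chrna4 (ENSMUSG00000027577) lies on chromosome 2 from 181018380 to 181043546 of GRCm38, on the minus strand. It measured 11.7, 20.1 and 20.3 RPKM for Dbx1 and 21.1, 8.75 and 35.8 for non-Dbx1, from 467 to 2108 reads. The lowest and the highest sample both belonged to the non-Dbx1 group, so the groups overlapped. The means were 17.3 ± 4.93 and 21.9 ± 13.6 RPKM (SD, n = 3), and the L2FC of −0.16 was smaller than its standard error of 0.489 (limma FDR = 0.984). The highest value was that of non-Dbx1 replicate 3, the sample with the highest sum of motor neuron genes, at 182 RPKM. The lowest was that of non-Dbx1 replicate 2, which had the second highest sum, at 63.9 RPKM. A link between Chrna4 and these genes was not tested. Without non-Dbx1 replicate 3 the L2FC was 0.28.

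Chrnb2 (ENSMUSG00000027950), the β subunit that pairs with the product of Chrna4, lies on chromosome 3 from 89746195 to 89764632 on the minus strand. It was the steadiest of the detected genes, with 2.74, 2.73 and 3.97 RPKM for Dbx1 and 4.72, 3.88 and 1.97 for non-Dbx1. Its coefficient of variation over the 6 samples was 30.6%, against 48.2% for Chrna4 and 64.4% for Chrm2. The means were 3.15 ± 0.715 and 3.52 ± 1.41 RPKM (SD, n = 3), with an L2FC of −0.085 (standard error 0.531, limma FDR = 0.991). The exons of Chrnb2 share 1014 bases with Adar on the opposite strand, and reads were counted without strand, so reads of the pair cannot be told apart there.

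The ratio of Chrna4 to Chrnb2 spanned a wider range over the non-Dbx1 samples than over the Dbx1 samples, a difference in spread that was not tested. It was 4.25, 7.36 and 5.11 for Dbx1 and 4.48, 2.26 and 18.2 for non-Dbx1 (ratios of RPKM). Both extremes were non-Dbx1 samples, and an exact permutation test of the log2 ratio detected no difference between groups (p = 0.90). The deposited RPKM of Chrnb2 was divided by 14755 bases, 1.76 times the 8380 bases of its merged exons in GENCODE vM21. Per merged exon length the ratio ranged from 1.59 to 12.8, and Chrna4 remained the higher in all 6 samples.

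Chrna3 (ENSMUSG00000032303) and Chrna5 (ENSMUSG00000035594) lie side by side on chromosome 9, from 55010111 to 55026562 and from 54980880 to 55007779. Chrna3 measured 1.81, 1.85 and 6.72 RPKM for Dbx1 and 3.70, 11.0 and 0.687 for non-Dbx1, from 42 to 609 reads. Its lowest and highest samples were again both non-Dbx1, with means of 3.46 ± 2.83 and 5.13 ± 5.30 RPKM (SD, n = 3). The L2FC of Chrna3 was −0.21 ± 0.813 (standard error; limma FDR = 0.988), and its sign changed without non-Dbx1 replicate 2, where it was 0.49. Chrna5 had 53 reads, all in non-Dbx1 replicate 3, for 1.05 RPKM. In the other samples it had none, where a count of 3 would have meant 0.0868 RPKM or less, and Chrna3 was present in all of those samples. Chrna5 was therefore below the filter of reads in at least 3 samples and was not tested.

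Chrna7 (ENSMUSG00000030525), on chromosome 7 from 63098692 to 63212569, measured 1.26, 1.25 and 0.0881 RPKM for Dbx1 and 0.285, 1.72 and 0 for non-Dbx1. Dbx1 replicate 3 had 3 reads and non-Dbx1 replicate 3 none, where 3 reads would have given 0.0650. Each group thus held samples with and without a clear level. A group difference of 0.22 ± 0.490 was fitted for Chrna7 (L2FC and standard error; limma FDR = 0.979), which turned to −0.080 without non-Dbx1 replicate 3.

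Chrm2 was the only one of the 10 genes whose groups did not overlap. The gene (ENSMUSG00000045613) lies on chromosome 6 from 36388084 to 36528414 on the plus strand, and 133 bases of its exons are shared with 9330158H04Rik on the opposite strand. RPKM was 10.7, 15.3 and 10.7 for Dbx1 and 0.298, 6.76 and 5.07 for non-Dbx1, from 531, 718 and 464 reads and from 12, 360 and 298 reads. All 3 Dbx1 values thus exceeded all 3 non-Dbx1 values, and the lowest of the former was 1.59 times the highest of the latter (exact permutation p = 0.10, which no comparison of 3 with 3 samples can go below). The means were 12.3 ± 2.65 and 4.04 ± 3.35 RPKM (SD, n = 3), which is 3.03 times as much in the Dbx1 samples. The L2FC of Chrm2 was 1.73 ± 0.678 (standard error), with an unadjusted limma p of 0.033. The limma FDR was 0.912, above the threshold of 0.1, so the difference did not hold after adjustment over the 17614 genes tested.

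The size of the Chrm2 difference rested in part on non-Dbx1 replicate 1, the sample with the most haemoglobin and oligodendrocyte RNA. Without it the L2FC was 0.93 with an unadjusted limma p of 0.047 (limma FDR = 0.883). With that sample left out, 20.4% of all tested genes had groups that did not overlap, in either direction. Non-overlap in this direction was found for 5.35% of the 17614 genes and an unadjusted limma p under 0.05 for 2.73%, which are the shares against which the 1 of 7 tested receptor genes stands. In the opposite direction the shares were 5.24% and 2.48%. Counting both directions, 10.6% of genes had groups that did not overlap.

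Chrm3 (ENSMUSG00000046159), on chromosome 13 from 9875486 to 10360847, was the second muscarinic gene. It measured 1.09, 2.75 and 4.11 RPKM for Dbx1 and 1.93, 1.65 and 0.210 for non-Dbx1, from 13 to 188 reads. Dbx1 replicate 1 lay below 2 of the non-Dbx1 samples, so the groups overlapped. The means were 2.65 ± 1.51 and 1.26 ± 0.923 RPKM (SD, n = 3), with an L2FC of 0.70 (standard error 0.622, limma FDR = 0.951). The difference was smaller without non-Dbx1 replicate 3, at 0.30.

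Chrm1 (ENSMUSG00000032773), on chromosome 19 from 8663789 to 8683587, was detected in part of the Dbx1 samples. Its exons share 329 bases with Gm22820 on the opposite strand. RPKM was 0.931, 0.911 and 0 for Dbx1 and 0, 0.0534 and 0 for non-Dbx1. The first 2 Dbx1 samples had 81 and 75 reads and non-Dbx1 replicate 2 had 5. Dbx1 replicate 3 was without reads, where 3 reads would have given 0.0394 RPKM, and so the groups shared a range of values (exact permutation p = 0.40). An L2FC of 0.60 was fitted, with standard error 0.290 (limma FDR = 0.912).

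Chrm4 (ENSMUSG00000040495) had 0.537 RPKM in non-Dbx1 replicate 1, or 5 reads if its length was that of the GENCODE model, and none elsewhere. Chrm5 (ENSMUSG00000074939) had none at all, and a count of 3 reads would have meant at most 0.290 RPKM. Their annotated models, on chromosome 2 from 91927249 to 91928688 and from 112479171 to 112480769, are single exons of 1440 and 1599 bases. Both lengths are whole multiples of 3, as that of a coding sequence is, but the coding part was not checked. In RefSeq the start of Chrm4 lies 5060 bases upstream of its GENCODE model. If such a model holds the coding part alone, reads from exons outside it are not counted. The model the authors counted on is not given in the sources used here.

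Starts differed between the receptor genes in CG dinucleotides, the sites of DNA methylation, and 3 are shown, from the gene with the highest level, the gene whose groups were apart and the gene without reads. Each is the 250 bases before the RefSeq start on GRCm38.p6, 5′ to 3′ on the strand of the gene, with CG dinucleotides in capitals. RefSeq windows were found for 9 of the 10 genes, and the median over 32851 windows was 6 CG.
Chrna4, chr2:181039178-181039427, minus strand: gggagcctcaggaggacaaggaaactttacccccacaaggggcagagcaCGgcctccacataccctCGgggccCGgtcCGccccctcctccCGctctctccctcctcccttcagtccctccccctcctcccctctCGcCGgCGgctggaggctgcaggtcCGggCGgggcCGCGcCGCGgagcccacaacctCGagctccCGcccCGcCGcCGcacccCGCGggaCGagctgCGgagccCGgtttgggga
Chrm2, chr6:36387834-36388083, plus strand: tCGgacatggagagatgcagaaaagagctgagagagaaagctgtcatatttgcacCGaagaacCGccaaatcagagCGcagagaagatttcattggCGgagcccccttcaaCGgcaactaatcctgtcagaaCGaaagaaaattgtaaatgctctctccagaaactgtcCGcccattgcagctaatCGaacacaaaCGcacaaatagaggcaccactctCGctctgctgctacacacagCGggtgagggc
Chrm5, chr2:112480818-112481067, minus strand: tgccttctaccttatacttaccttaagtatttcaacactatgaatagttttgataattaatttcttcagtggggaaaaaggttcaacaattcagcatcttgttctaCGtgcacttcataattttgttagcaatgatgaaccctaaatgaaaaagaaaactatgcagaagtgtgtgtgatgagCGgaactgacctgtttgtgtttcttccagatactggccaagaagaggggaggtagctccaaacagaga
The window of Chrna4 holds 24 CG dinucleotides, more than 88.0% of all windows do, and 3 copies of the Sp1 box GGGCGG on either strand. That of Chrm2 holds 12 and 1 box, and that of Chrm5 holds 2 and no box. The RefSeq start of Chrm5 lies 48 bases upstream of its single-exon GENCODE model. Whether the Chrm5 window lies before a true start of transcription was not tested. The Sp1 box is found in 32.7% of all windows. The window of Chrm4, a gene with few reads, has 26 CG, and that of Chrnb2, with reads in every sample, has 10. GENCODE also places a start of Chrna4 4369 bases upstream of this one, so the window is not that of every transcript.

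The muscarinic transcripts differed between samples in their make-up as well as their sum. The 5 genes together gave 12.7, 19.0 and 14.8 RPKM for Dbx1 and 2.76, 8.46 and 5.28 for non-Dbx1. These sums did not overlap (exact permutation test, p = 0.10), but most of each Dbx1 sum was Chrm2. Without Chrm2 the muscarinic sums were 2.02, 3.66 and 4.11 RPKM for Dbx1 and 2.47, 1.71 and 0.210 for non-Dbx1, which overlapped (exact permutation test, p = 0.20). Chrm2 held 84.1%, 80.7% and 72.3% of that sum in the Dbx1 samples. Its share was 79.8% and 96% in non-Dbx1 replicates 2 and 3 and 10.8% in replicate 1, where Chrm3 held 69.8%. In the shares, unlike the sum, the groups overlapped (exact permutation test on log2 shares, p = 0.80). The 5 nicotinic genes together gave 17.5, 25.9 and 31.1 RPKM for Dbx1 and 29.8, 25.3 and 39.5 for non-Dbx1, with overlap. Chrna4 held most of that sum in 5 of the 6 samples, and 34.5% in non-Dbx1 replicate 2, where Chrna3 was highest.

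**Figure D2:**
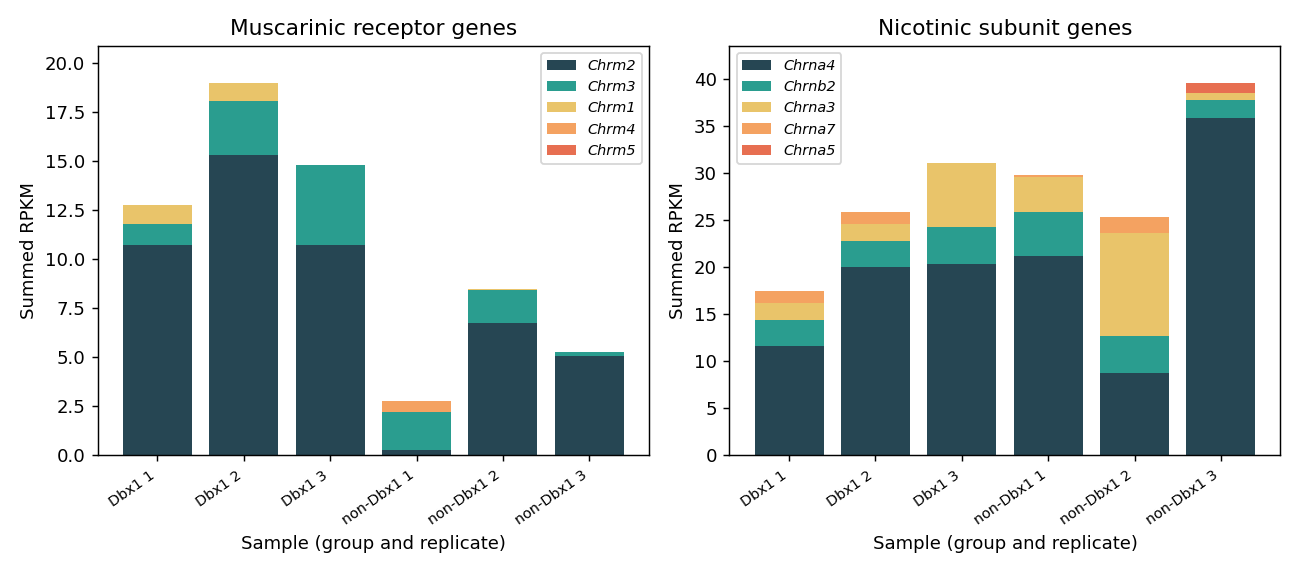
Summed RPKM of the 5 muscarinic receptor genes (left) and the 5 nicotinic subunit genes (right) in each sample, with 1 bar for each sample and 1 colour for each gene. The muscarinic bars of the Dbx1 samples all lie above those of the non-Dbx1 samples, and the nicotinic bars overlap.

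Across the 7 receptor genes that could be tested, L2FC was above 0 for 4 and below 0 for 3, with a median of 0.22. Over all 17614 tested genes the median was 0.0089 and 50.8% were above 0. All 3 tested muscarinic genes were above 0, and of the 4 nicotinic genes only Chrna7 was, although the sign of Chrna3, Chrna4, Chrna7 and Chrnb2 changed when single samples were left out. None of the 7 had a limma FDR under 0.1, a threshold passed by 0% of all genes in favour of the Dbx1 samples (0 genes, against 480 at an unadjusted limma p under 0.05) and 0.00568% in favour of the non-Dbx1 samples (1 gene). These counts are those of the limma test on RPKM. With its count-based test, not run here, the study called genes in both directions at the same threshold. Among them were Hif1a and Syt10, higher in Dbx1, and Gata2 and Htr1a, higher in non-Dbx1. At an unadjusted p under 0.05 there was 1 receptor gene, Chrm2, against 5.2% of all genes in either direction.

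**Figure D3:**
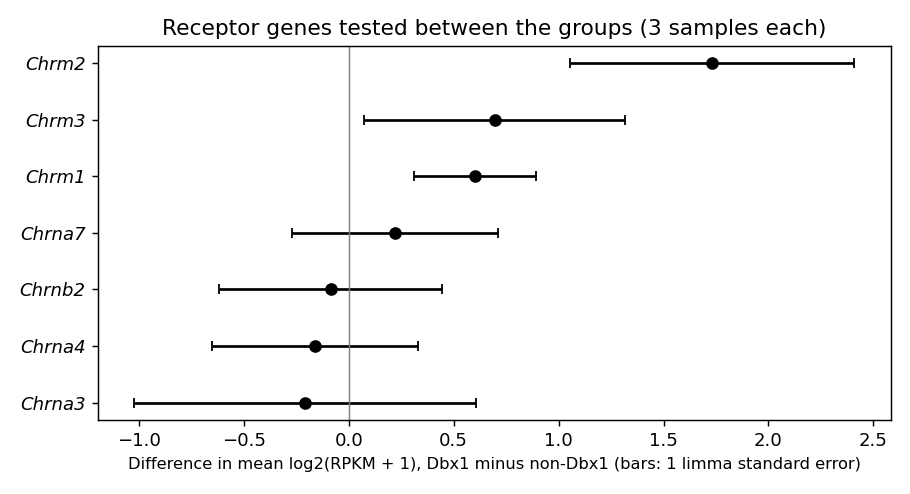
Difference in mean log2(RPKM + 1) between the Dbx1 and the non-Dbx1 samples for the 7 receptor genes with reads in at least 3 samples, where positive values are higher in the Dbx1 samples. Bars are 1 limma standard error. Chrm2 lies at 1.73 ± 0.678, and the other genes lie between −0.21 and 0.70.

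The other nicotinic subunit genes were scarce. Of 11 such genes, 4 had no reads in any sample (Chrna2, Chrnb3, Chrnd and Chrng) and none had reads in all 6. Chrna6, a subunit typical of catecholaminergic neurons, had the highest mean of these, at 0.974 RPKM, from 5.79 in non-Dbx1 replicate 2 and 0.0532 in replicate 1, and it was at 0 in the Dbx1 samples. Chrnb4, the usual partner of Chrna3, reached at most 0.408 RPKM, in the sample where Chrna3 was highest. Only 3 of the 11 could be tested, and none had an FDR under 0.1.

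Genes that make, move and break down acetylcholine had low or variable levels except for Ache, the esterase that ends its action, which measured 80.4, 117 and 33.8 RPKM for Dbx1 and 44.3, 58.1 and 50.5 for non-Dbx1. Chat, the synthetic enzyme, was between 0.0448 and 0.945 RPKM in the Dbx1 samples and between 0.0550 and 4.0 in the non-Dbx1 samples. Of the 5 genes, 2 had an L2FC above 0 and 3 below, and no FDR was under 0.1.

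Among 7 chaperones and Ly6-family regulators of nicotinic receptors, all had reads in every sample. Tmem35a, the assembly chaperone also called NACHO, was the highest, with a mean of 99.5 RPKM and a range from 33.4 to 224. Ric3, a chaperone of the Chrna7 product, had an L2FC of −0.29. Lypd1, whose product dampens nicotinic receptors, was the only gene of this list without overlap between groups, at 7.91, 14 and 2.87 RPKM for Dbx1 and 1.45, 1.34 and 1.86 for non-Dbx1. The difference for Lypd1 was 1.66 ± 0.618 as L2FC and standard error (limma FDR = 0.912). The median L2FC of the list was −0.28, with 2 genes above 0.

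Of 10 genes for G protein α subunits and phospholipase C, Gnai1 had the highest mean, at 78.6 RPKM, and 8 had reads in all samples. Gnaq, an α subunit used by the Chrm1, Chrm3 and Chrm5 products, was lower in every Dbx1 sample. It measured 18.8, 19.8 and 19.3 RPKM against 25.6, 23.2 and 22.8, with an L2FC of −0.29 (standard error 0.240, limma FDR = 0.949). Gna11, also of this list, had the higher mean in Dbx1, at 44.3 ± 8.33 RPKM against 35.6 ± 3.99 (SD, n = 3). The groups of Gna11 overlapped, with an L2FC of 0.30 (standard error 0.243, limma FDR = 0.949). The median L2FC of these 10 genes was 0.29, with 8 above 0. Of 7 potassium channel genes on which muscarinic receptors act, Kcnj5 had no reads, and L2FC was above 0 for 3 of the others and below 0 for 3.

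Of 9 genes for RGS proteins, receptor kinases and arrestins, all had reads in every sample and Rgs4 was the highest at a mean of 41.3 RPKM. Grk3, a kinase that desensitises G protein-coupled receptors, was the only one without overlap. It measured 1.84, 4.55 and 3.84 RPKM for Dbx1 and 11.7, 13.5 and 6.87 for non-Dbx1, with an L2FC of −1.42 (standard error 0.468, limma FDR = 0.870). No gene of these 6 lists had an FDR under 0.1, and the groups of 3 tested genes, Lypd1, Gnaq and Grk3, did not overlap, 1 higher and 2 lower in the Dbx1 samples. These are 7.5% of the 40 tested genes of the lists, against 10.6% of all tested genes.

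**Figure D4:**
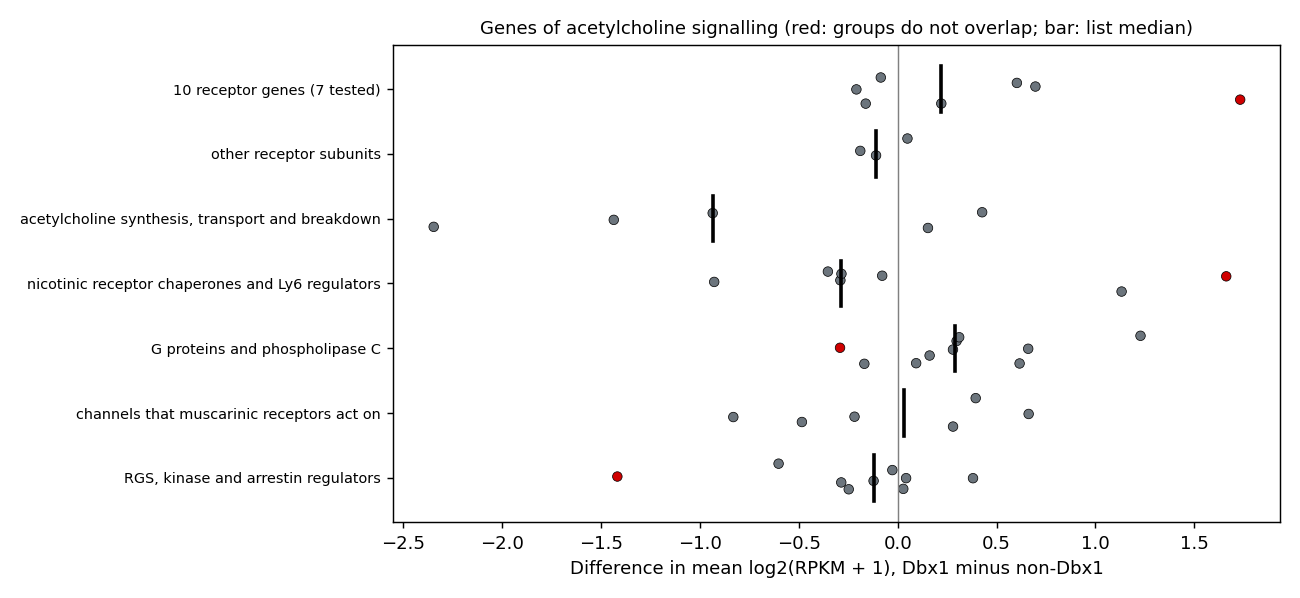
Difference in mean log2(RPKM + 1) for each tested gene of the receptor set and of 6 lists of acetylcholine signalling genes, 1 point for each gene. Red points are genes whose groups do not overlap (Chrm2, Lypd1, Gnaq and Grk3), and bars mark list medians, which run from −0.93 to 0.29.

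The genes whose pattern over the 6 samples was closest to Chrna4 were sought among the 17613 other tested genes, by the root-mean-square difference in log2(RPKM + 1) after each gene was centred on its own mean. The closest were Shisa7 at 0.114, Hip1r at 0.155 and Gm45128 at 0.170, where Chrna4 itself deviated from its mean by 0.616. Shisa7 measured 2.36, 3.86 and 4.24 RPKM for Dbx1 and 5.54, 1.58 and 7.96 for non-Dbx1, with the same lowest and highest sample as Chrna4.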

How the data were processed

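RNA from 6 samples of 15 neurons, each from 1 mouse, was measured as RPKM. Per the labels and the methods of the study, the authors amplified complementary DNA (SMART-Seq v4), aligned single-end reads to mm10 with TopHat2, sorted them with SAMtools and counted them by gene name and without strand with HTSeq. The authors deposited 1 RPKM value for each gene and sample, computed from total exon length and the reads on genes of that sample, without scaling between samples. The release of their annotation is not given in the sources used here. Since the deposited unit is RPKM, the main test was run on RPKM, and recovered reads entered 1 alternative.

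Reads on genes per sample and reads per gene were recovered from the steps between RPKM values, as the smallest whole numbers that fit. For Chrm4 and Chrna5, each with reads in 1 sample, 1 value cannot fix the length. The 5 reads of Chrm4 rest on the GENCODE length of 1440 bases. The 53 reads of Chrna5 rest on 5348 bases, the smallest length that fits, which equals the sum of its distinct GENCODE exons. Recovered depths and these lengths gave the RPKM that 3 reads would have. Such floors allow for counting error alone, because amplified reads are not independent molecules. For the 8 receptor genes other than Chrm4 and Chrm5 the length behind the RPKM was 1.03 to 1.76 times the merged exon length of GENCODE vM21 (GRCm38, the same assembly as mm10), and for 4 it equalled the sum of all distinct exons, so that overlapping exons counted more than once. Levels of different genes depend on this length. The ratio of group mean RPKM does not, but an L2FC does, through the 1 added to RPKM before the log2.

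Groups were compared on log2(RPKM + 1), which understates changes of low genes, with the moderated two-sided test of limma 3.58.1 (eBayes, trend on) in R 4.3.3. Genes entered if 3 or more samples had RPKM over 0, which left 17614, and the FDR was adjusted by Benjamini-Hochberg over these, with the threshold of 0.1 that the study used. The study's own count-based test of differential expression was not run. The p-values for group differences rest on the spread between samples. Each sample was 1 amplified pool from 1 mouse, so spread from mice, picked cells and amplification cannot be told apart. The fit was tested on simulated data. Exact permutation and sign-change tests used scipy 1.17.1 in Python 3.11.15. The members and lists were chosen with earlier results of these data known. All 10 receptor genes are named. From each list the gene with the highest mean and any gene whose groups did not overlap or whose FDR was under 0.1 are named, and Chat, Chrnb4, Ric3, Kcnj5 and Gna11 were named after their values were seen. Some genes that this rule would name are not reported here. Alternatives were a pseudocount of 0.1, other filters, size factors, quantile normalization, no trend, voom on recovered reads, the replicate number as a block and each sample left out. The merged exon length, the ratio of group means and the list counts without non-Dbx1 replicate 1 were added after seeing the data.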

Additional observations from a re-analysis of the deposited data

How the results depend on the processing

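With 3 samples a group and a median limma standard error of 0.484 over tested genes, differences like most of those of the receptor genes lie within the spread between samples. No receptor gene that could be tested reached an FDR of 0.1 in the 14 alternative fits, which tested 6, 7 or 9 of the 10 genes. Chrm5 was never tested, and Chrm4 and Chrna5 were tested only with the filter of RPKM above 0 in at least 1 sample. The L2FC of Chrm2 stayed between 0.93 and 2.33, that of Chrm3 between 0.30 and 1.49, and that of Chrm1, which was tested in fewer fits, between 0.58 and 5.11, the last with the log2 ratio of group means. Over the alternatives Chrna7 ran from −0.080 to 1.77, with 0.77 at a pseudocount of 0.1 and the highest value with voom on recovered reads. Among the nicotinic genes the sign changed only where 1 sample was left out. Leaving out Dbx1 replicate 1 moved Chrna3 from −0.21 to 0.038, leaving out Dbx1 replicate 2 moved it to 0.028 and leaving out non-Dbx1 replicate 2 moved it to 0.49, over a range from −0.93 to 0.49. Chrna4 went from −0.16 to 0.087 when Dbx1 replicate 1 was left out and to 0.28 when non-Dbx1 replicate 3 was (range −0.68 to 0.28), Chrna7 to −0.080 without non-Dbx1 replicate 3 (range −0.080 to 0.64) and Chrnb2 to 0.11 without non-Dbx1 replicate 1 (range −0.36 to 0.11). The number of all genes with an FDR under 0.1 was 0 higher in the Dbx1 samples, and 0 to 1 when samples were left out. It was 1 higher in the non-Dbx1 samples, 0 with a pseudocount of 0.1, with RPKM above 0 in at least 1 sample as the filter and with voom on recovered reads, 3 without the trend, and 0 to 1 when samples were left out.

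The replicate numbers of the labels do not mark a shared animal, since each sample came from a different mouse. Whether same-numbered samples shared a batch is not given in the sources used here, and the values below cannot decide it. Deviations of same-numbered samples from their group means correlated by −0.11, 0.025 and −0.052, and the replicate block gave 0 genes with an FDR under 0.1, in either direction.

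In the order of levels, Chrna3 over Chrnb2 turned from 0.0047 to −0.11 with log2(RPKM + 0.1), to −0.43 with the merged exon length, and ranged down to −0.25 and up to 0.17 when samples were left out. Chrm1 over Chrna5 ranged from −0.0054 to 0.39, Chrna5 over Chrm4 from −0.12 to 0.21 and Chrm4 over Chrm5 from 0 to 0.12. With 5 samples the exact sign-change test cannot go below 0.062, so these are values without a test. Without non-Dbx1 replicate 1, where 2 samples remain in a group and separation is easier, the groups of Chat, Slc18a3, Gnao1, Plcb3, Kcnj9, Rgs7 and Arrb2 also did not overlap. Then 10 of the 40 tested list genes did not overlap, against 20.4% of all tested genes.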
